A study of Mus musculus with 4 samples.

Results

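The 10 genes described here belong to the mucus-secreting cells of the colon. They were followed across 4 expression arrays, on which 9 of the 10 were measured, among 19938 genes with a value. They were chosen by name, as Muc2, Tff3, Fcgbp, Zg16, Agr2, Spink4, Spdef, Reg4, Kit and Atoh1. A gene's value was the mean of the probe sets (groups of probes for 1 transcript) whose only symbol in the platform annotation was that gene. The 9 measured genes had exactly 1 such probe set each. All 3 probe sets that list Fcgbp, which encodes a large protein of the mucus gel, also list other genes, so no value was taken for Fcgbp.

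The arrays compared colon epithelium of male C57BL/6 mice, 11 weeks old, after 14 days on 1 of 2 diets. Both diets were high in fat (40% of energy) and low in calcium, and the heme diet also contained heme, the iron pigment of red meat, at 0.5 µmol/g. Surface cells, at the mouth of the crypts, and crypt cells were isolated from frozen colon rolls by laser capture microdissection. RNA was pooled into control surface (4 mice), control crypt (4 mice), heme surface (3 mice) and heme crypt (3 mice), with 1 array per pool.

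Goblet cells make the mucus that covers the colon. MUC2 is the gel-forming mucin, and TFF3, ZG16 and FCGBP are secreted with it, while AGR2 acts in the endoplasmic reticulum, where mucins are folded. ATOH1 is the transcription factor that commits a progenitor to the secretory lineage when Notch signalling is low, and SPDEF acts later, in goblet cell maturation. Deep crypt secretory cells are goblet-like cells that lie between the stem cells at the base of colonic crypts. REG4, a secreted lectin, and KIT, a receptor tyrosine kinase, mark them, and SPINK4, a small protease inhibitor, is secreted by goblet cells.

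Promoter sequence was available in the RefSeq table (GRCm38.p6) for 7 of the 10 genes (all but Tff3, Zg16 and Spink4) and is shown for Muc2 and Reg4, the measured genes with the smallest and the largest range over the 4 arrays. Each run is the 250 bases before the annotated start of the gene, 5′ to 3′ on the gene's strand. The Muc2 window is chr7:141690090-141690339 and the Reg4 window chr3:98221906-98222155, both on the + strand. Capitals mark matches to CAGCTG, an E-box of the kind bound by basic helix-loop-helix factors such as ATOH1, or to the forkhead motif TGTTTAC, read on either strand.
Muc2: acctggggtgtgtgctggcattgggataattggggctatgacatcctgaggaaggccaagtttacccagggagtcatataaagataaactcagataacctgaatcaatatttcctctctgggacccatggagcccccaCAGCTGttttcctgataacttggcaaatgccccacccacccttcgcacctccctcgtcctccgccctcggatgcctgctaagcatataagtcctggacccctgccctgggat
Reg4: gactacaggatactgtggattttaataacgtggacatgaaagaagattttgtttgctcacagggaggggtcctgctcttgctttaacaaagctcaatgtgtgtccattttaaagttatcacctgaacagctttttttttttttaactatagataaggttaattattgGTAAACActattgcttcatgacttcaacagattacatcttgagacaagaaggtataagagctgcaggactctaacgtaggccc
Both were searched on both strands of this window, as were the E-box variant CATCTG and an ETS-type core spelled CCGGAT, and no matches found overlapped. CAGCTG was present before Muc2 and Fcgbp, 2 of 7, and in 12.8% of 27025 promoters. TGTTTAC was present before Reg4 alone, 1 of 7, and in 3.09% of promoters. The E-box variant was in 0 of the 7 and in 14.5% of promoters, and the ETS-type core in 0 of the 7 and in 4.90%. Of these windows Kit was the richest in G and C, at 70.8%, and Reg4 the poorest, at 37.2%.

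Expression values are log2 values from RMA, a method that corrects background, equalises the arrays and summarises the probes. With 1 array per group there is no spread between mice, no test and no p-value, and no difference below has a replicate check. A gene was called higher or lower when 2 arrays differed at least 2-fold (1 log2 unit) and either of them reached 5.75, the median over all genes and arrays, here called the floor. In a pool, fewer cells of a type and less RNA per cell cannot be told apart. Values of different genes come from different probes, so only differences between arrays are compared between genes.

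The labels of the pools were checked against marker genes, which were listed with earlier results of these data known. Of 16 colonocyte markers, 14 were called higher in control surface than in control crypt cells, against 12.0% of all genes. Of 13 crypt base and progenitor markers 12 were called lower, against 13.5%. The exception was Prom1, 2.16 higher on the log2 scale in surface cells. The secretory genes were present in both compartments: all 9 measured genes were above the floor on all 4 arrays, and the smallest margin was 0.43, for Reg4 in control surface cells. Muc5ac, a mucin typical of stomach, and Tff1 and Tff2 were below the floor on every array.

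On the control diet the secretory genes did not share a position along the crypt. Zg16 and Tff3 were higher in surface cells, Reg4, Spink4, Kit, Agr2 and Spdef were higher in crypt cells, and Muc2 and Atoh1 differed less than 2-fold. Thus 2 of 9 were called higher in surface cells, against 12.0% of all genes, and 5 were called lower, against 13.5%. Their median difference (surface minus crypt) was -1.67, and that of all genes was -0.05. The plot of values by array shows the order, from Zg16 with its surface values on top to Reg4 with its crypt values on top.

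**Figure D1:**
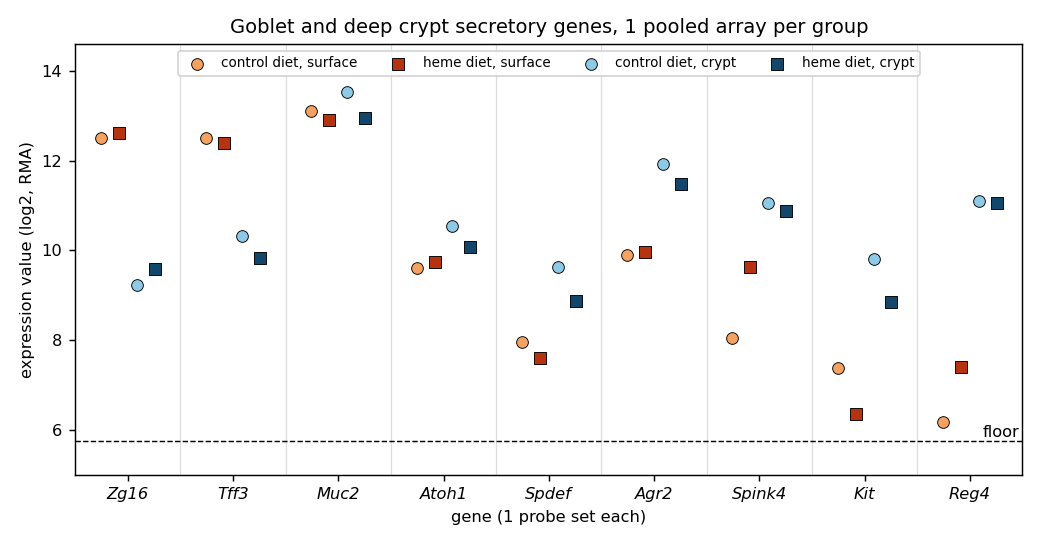
RMA expression values (log2, vertical axis) of the 9 measured genes on the 4 arrays, 1 point per array, with circles for the control diet, squares for heme, warm colours for surface and blue for crypt cells. The dashed line is the floor of 5.75; Zg16 and Tff3 have both surface points above both crypt points, and Spdef, Agr2, Spink4, Kit and Reg4 the reverse.

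Muc2, the mucin itself, was measured at 13.12 in control surface, 12.90 in heme surface, 13.54 in control crypt and 12.96 in heme crypt cells. These are close together, spanning 0.64, and the control crypt pool was the highest. Surface minus crypt, it differed by -0.42 with the control diet and by -0.06 with heme.

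The secreted partners of the mucin behaved otherwise. Tff3, a trefoil peptide, was at 12.51 in control surface and 12.39 in heme surface cells, and at 10.31 in control crypt and 9.83 in heme crypt cells. Both surface values lay above both crypt values, with a difference of 2.20 (4.59-fold) for the control diet and 2.56 (5.90-fold) for heme. Zg16, a lectin that binds Gram-positive bacteria in mucus, was at 12.51 and 12.61 in control and heme surface cells and at 9.23 and 9.58 in the crypt pools. It was 3.28 higher in surface cells on the control diet (9.73-fold), rank 102 of 10864 genes, and 3.03 on heme (8.17-fold).

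Agr2, the disulfide isomerase of the goblet endoplasmic reticulum, was at 9.89 in control surface, 9.97 in heme surface, 11.94 in control crypt and 11.48 in heme crypt cells. The crypt pools were higher on both diets, by 4.12-fold on the control diet and 2.85-fold on heme. Spink4 was at 8.06 in control surface, 9.62 in heme surface, 11.05 in control crypt and 10.87 in heme crypt cells. Its control surface value stood far below the other 3. The surface minus crypt difference was -2.99 (7.95-fold) with control food and -1.25 on heme (2.39-fold).

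Reg4 had the lowest surface minus crypt difference of the 10864 genes tested on the control diet. Its values were 6.18 in control surface, 7.41 in heme surface, 11.11 in control crypt and 11.07 in heme crypt cells. The crypt pools were alike and the surface pools were not. The difference was -4.93 on the control diet (30.5-fold) and -3.65 on heme (12.6-fold), where it ranked 6 of 10698 from the bottom. The control surface value lay near the floor, and with 32 added to each linear value the differences were -4.42 and -3.43.

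Kit was at 7.37 in control surface, 6.35 in heme surface, 9.82 in control crypt and 8.84 in heme crypt cells. Within each compartment the heme pool was the lower, and the surface minus crypt difference was nearly the same on both diets, -2.45 and -2.50. Mast cells and interstitial cells of Cajal, which are not epithelial, also express Kit, and which cells its values came from was not tested. Of 13 smooth muscle and fibroblast markers, 5 were called lower in control surface than in control crypt cells, against 13.5% of all genes. In the other direction 1 was called, against 12.0%, and the median was -0.36. On heme 1 was called lower, against 16.5%, and 1 higher, against 15.3%. Of 12 mast cell markers, 11 were below the floor on all 4 arrays, among them Cpa3 (2.88 to 3.21), Mcpt4 (3.26 to 3.58), Cma1 (3.70 to 4.00) and Tpsb2 (4.96 to 5.03). The exception was Hpgds, a prostaglandin D synthase gene, at 7.14 in control surface, 6.69 in heme surface, 6.48 in control crypt and 6.00 in heme crypt cells. The linear sum of the 12, most of them below the floor, was 319, 305, 257 and 238 in the same order. Ano1, a chloride channel gene that marks interstitial cells of Cajal and is also used by secretory epithelia, had a surface minus crypt difference of 2.11 on the control diet, opposite in sign to Kit. Of the other markers of those cells that reached the floor, Etv1 differed by -0.42, the same sign as Kit, and Thbs4 by 0.16, and neither was called. Of the 5 markers measured for those cells, 2 were at or above the floor in both surface pools and in heme crypt cells and 3 in control crypt cells, and their linear sum, carried mostly by Ano1 and Thbs4, was 3017, 2307, 1820 and 1551 in control surface, heme surface, control crypt and heme crypt cells.

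Of the transcription factors, Spdef was called lower in surface cells on both diets and Atoh1 on neither. Atoh1 was at 9.62 in control surface, 9.73 in heme surface, 10.55 in control crypt and 10.07 in heme crypt cells, a surface minus crypt difference of -0.93 on the control diet and -0.34 on heme. Spdef was at 7.97, 7.61, 9.63 and 8.87 in the same order of pools, a difference of -1.67 (3.17-fold) and -1.26 (2.39-fold).

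On heme 2 of 9 genes were again called higher in surface cells and 5 lower, against 15.3% and 16.5% of all genes, with a median of -1.25 (all genes -0.05). The same genes were called on each diet. In the plot of one diet against the other, Spink4 and Reg4 lay farthest above the line of equal differences and Kit, Tff3 and Zg16 near it.

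**Figure D2:**
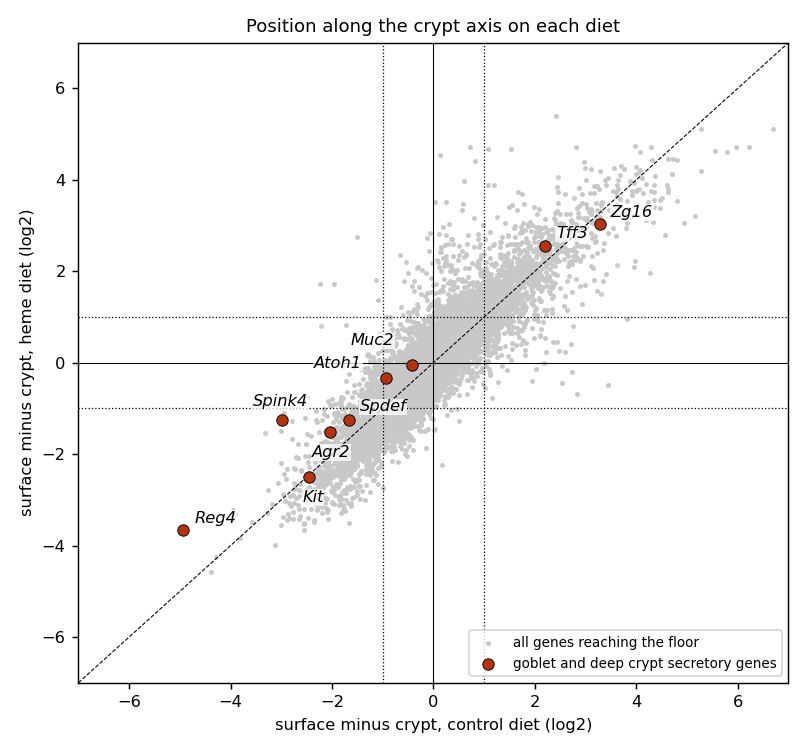
Surface minus crypt difference (log2) on the control diet (horizontal) and on the heme diet (vertical), with 1 point per gene: 9 secretory genes in red and 11147 genes that reached the floor on any array in grey. Dotted lines mark 2-fold and the dashed line equal differences; Reg4 is at -4.93 and -3.65 and Spink4 at -2.99 and -1.25.

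The size of these differences depends on how the arrays are scaled to each other, because whole gene classes differ between compartments. When each array was centred on 37 ribosomal protein genes, the all-gene median of surface minus crypt on the control diet became 1.08, and with 13 pan-epithelial genes it became -0.92. Under ribosomal protein centring Muc2 (0.65) and Atoh1 (0.13) turned positive, and Agr2 (-0.97) and Spdef (-0.60) were no longer called. On heme, Muc2 (0.93) and Atoh1 (0.65) turned positive too, and Agr2 (-0.52), Spink4 (-0.27) and Spdef (-0.27) were no longer called. All of these stayed below that scaling's median of all genes, 1.08 with control food and 0.99 with heme. Under pan-epithelial centring Muc2 (-1.28) and Atoh1 (-1.80) were called lower on the control diet and Atoh1 (-1.16) on heme. Zg16 and Tff3 stayed higher and Reg4 and Kit lower under every scaling tried on both diets.

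**Figure D3:**
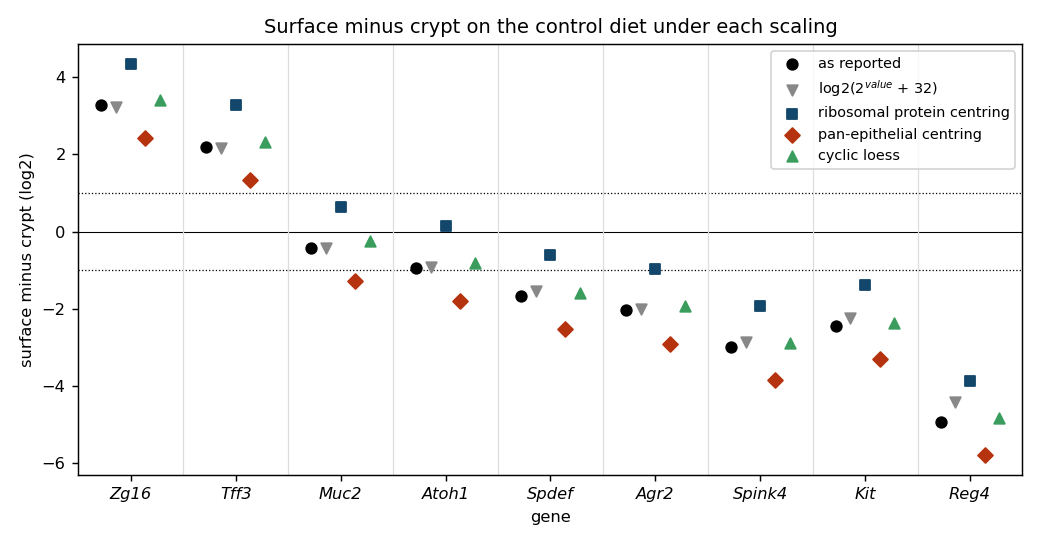
Surface minus crypt difference on the control diet (log2, vertical axis) for each of the 9 genes, as reported and under 4 other treatments of the values (addition of 32 on the linear scale, ribosomal protein centring, pan-epithelial centring, cyclic loess). Dotted lines mark 2-fold; ribosomal protein centring lifts and pan-epithelial centring lowers all 9 genes, with Reg4 at -4.93 as reported.

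Other goblet cell genes were divided in the same way on the control diet. Of 20 further secreted and granule genes that reached the floor, out of 28 listed, 7 were called higher in surface cells and 6 lower. The shares of all genes were 12.0% and 13.5%. Under ribosomal protein centring the counts became 9 and 1, beside 6296 and 183 of 11488 genes. Under pan-epithelial centring they became 3 and 11, beside 466 and 5266 of 11521. Clca1, a metalloprotease of mucus, was at 13.26 in control surface and 11.16 in control crypt cells, and Guca2a, the guanylin gene, which is also on the colonocyte list, at 12.88 and 10.87. On the crypt side Slc12a8, a transporter gene, was at 6.91 in surface and 10.19 in crypt cells. Among 21 genes listed for protein folding and processing in goblet cells 1 was higher in surface cells, Tgm3 (12.63 against 8.64), whose product cross-links proteins and is no folding enzyme of the endoplasmic reticulum. On that list 6 were lower, led by the disulfide isomerase gene Pdia5 (7.45 against 10.08). Its median was -0.68, which turned to 0.39 under ribosomal protein centring, with 1 gene still called lower. That stayed below that scaling's median of all genes, 1.08. Txndc5 (-1.69) and Pdia6 (-1.73), 2 other disulfide isomerase genes, lay on the crypt side as Agr2 did.

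Of 14 secretory and goblet transcription factor genes, 2 were called higher in control surface cells and 4 lower (all genes 12.0% and 13.5%). Under ribosomal protein centring the counts became 5 and 2, beside 6296 and 183 of 11488 genes. The differentiation factor gene Klf4 was at 10.88 in surface and 8.18 in crypt cells. Creb3l1 (8.19 against 10.54) and Creb3l4 (6.33 against 8.78), membrane-bound factors of secretory cells, and Sox9 (7.13 against 8.90), a progenitor factor, lay on the crypt side. Among 9 Notch pathway genes 4 were lower in surface cells and none higher, including Notch1 (7.13 against 8.80) and the glycosyltransferase gene Lfng (5.48 against 7.25). Their median of -0.86 turned to 0.21 under ribosomal protein centring, with none called, still below that scaling's median of all genes, 1.08. Of 9 genes listed for deep crypt secretory and Kit-positive crypt cells, 4 of them the members Reg4, Kit, Spink4 and Agr2, 7 were lower in surface cells as reported and 3 under ribosomal protein centring. Cd24a was among the other 3, at 9.81 in surface and 11.31 in crypt cells.

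Heme was set against control first in surface cells. Spink4 and Reg4 were higher in the heme pool and Kit was lower, while Muc2, Tff3, Zg16, Agr2, Atoh1 and Spdef were not called. So 2 of 9 genes were called higher, against 3.62% of all genes, and 1 lower, against 2.01%. The median was 0.08, and that of all genes -0.02.

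Spink4 was at 8.06 in the control and 9.62 in the heme surface pool, a difference of 1.56 (2.95-fold, rank 149 of 10282). Reg4 went from 6.18 to 7.41, 1.23 higher (2.35-fold, rank 245), and 0.95 higher with 32 added to each linear value, below the size rule. Kit went from 7.37 to 6.35, a difference of -1.03 (2.04-fold), just past the rule. It was no longer called with the added 32 (-0.80) or after centring on ribosomal protein (-0.95) or pan-epithelial genes (-0.97). The other differences were -0.35 for Spdef, -0.22 for Muc2, -0.12 for Tff3, 0.08 for Agr2, 0.10 for Zg16 and 0.12 for Atoh1. The signs of Agr2 (-0.08), Zg16 (-0.07) and Atoh1 (-0.01) turned under cyclic loess.

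Values of other crypt genes stood beside those of Spink4 and Reg4 in the heme surface pool. Of 13 crypt base and progenitor markers none was called in surface cells, their median was -0.12, and their summed linear level was 2596 in control and 2118 in heme surface cells. Of all genes, 3.62% were called higher and 2.01% lower there. Lgr5, the stem cell receptor gene, was at 4.76 and 5.55, below the floor on both surface arrays. Of 7 enteroendocrine markers 4 were above 0. The hormone genes Gcg (1.54) and Insl5 (1.03) were called higher and Chga (-1.19), a granule protein gene, lower, while Sct (0.52), Pyy (0.46), Tph1 (-0.49) and Chgb (-0.55) were not called. Gcg was the gene nearest to Spink4 over the 4 arrays. Other secreted and granule genes called lower in control surface than in control crypt cells, 6 in all, went both ways. Slc12a8 (-0.76), Mptx1 (-0.89) and Ccl6 (-1.87) had lower values in the heme surface pool, and Muc4 (0.52), Fxyd3 (0.40) and Rab3d (0.25) higher. Of these only Ccl6 was called. Whether carry-over of crypt cells into the surface pool played a part was not tested.

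In crypt cells no gene of the 9 was called with heme (background 1.78% higher and 1.19% lower), and 8 of 9 had the lower value in the heme pool. Of all genes, 51.5% had a difference above 0. The median of the 9 was -0.48 and that of all genes 0.01. Kit was closest to the rule, from 9.82 to 8.84 (-0.98, 1.97-fold, rank 134 of 10491 from the bottom). Spdef followed, from 9.63 to 8.87 (-0.76, 1.69-fold), and Muc2, from 13.54 to 12.96 (-0.58). Tff3 (-0.48), Atoh1 (-0.48) and Agr2 (-0.46) differed by similar amounts. Spink4 (-0.18) and Reg4 (-0.05) differed little, and Reg4 turned to 0.11 under ribosomal protein centring, below that scaling's median of all genes, 0.19. Zg16 alone had the higher value on heme (0.35).

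**Figure D4:**
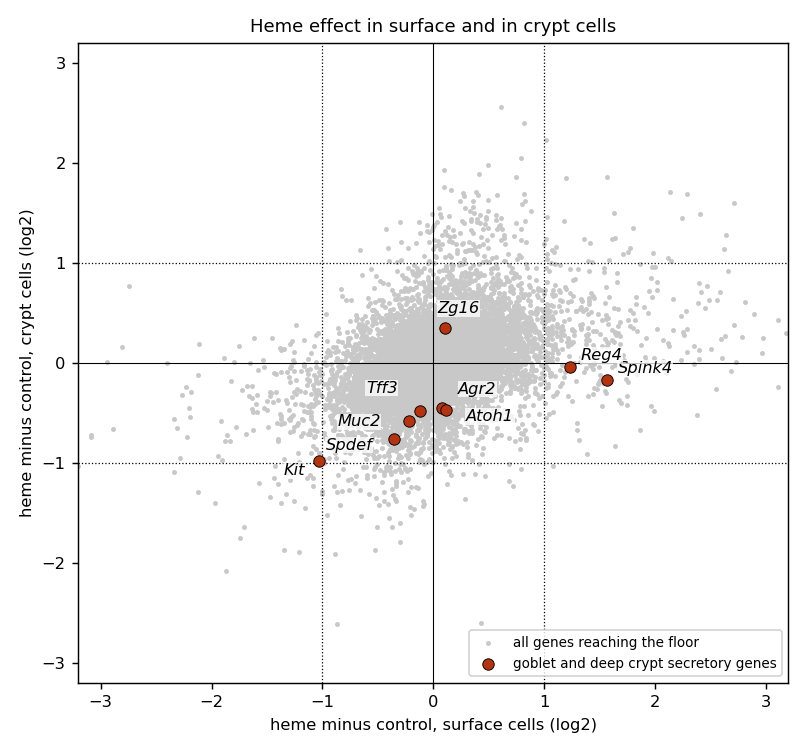
Heme minus control difference (log2) in surface cells (horizontal) and crypt cells (vertical), with 1 point per gene: the 9 secretory genes in red and genes that reached the floor on any array in grey, of which 27 of 11147 lie outside the axes. Dotted lines mark 2-fold; Spink4 (1.56 in surface cells) and Reg4 (1.23) lie to the right, Kit (-1.03 and -0.98) at the lower left, and 8 of 9 genes lie below 0 on the vertical axis.

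In surface cells with heme, 9 of 20 other secreted and granule genes were above 0, against 48.5% of all genes. The median of the list, -0.04, turned to 0.04 under ribosomal protein centring, beside a median of 0.05 for all genes under that scaling. Ccl6 (8.66 to 6.79) and the ribonuclease gene Ang4 (-1.27) were called lower, against 2.01% of all genes. Ang4 went from 6.42 to 5.15, below the floor. Of the 21 folding genes 17 were above 0 (median 0.36), among them the chaperone gene Hspa5 (0.97) and P4hb (0.86), and Tgm3 was called lower (12.63 to 11.48).

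Further goblet cell genes had lower values in the heme crypt pool as well. Of 20 other secreted and granule genes 19 were below 0 (median -0.55), and 3 were called lower. Of all genes in crypt cells, 1.19% were called lower, 1.78% were called higher and 51.5% were above 0. The chemokine gene Ccl6 went from 10.70 to 8.61, the pentraxin gene Mptx1 from 11.93 to 10.01 and the mucin glycan branching enzyme gene Gcnt3 from 9.40 to 8.16. Clca1 differed by -0.82, Bcas1 by -0.76 and Slc12a8 by -0.74. Under ribosomal protein centring 14 of the 20 were below 0, with a median of -0.39. The transcription factor list had a median of -0.17, with 1 of 14 called: Neurog3, the enteroendocrine determinant, at 4.54 in control and 5.97 in heme crypt cells, not called with 32 added or under ribosomal protein centring. Creb3l4 (-0.86) and Foxa3 (-0.47) had lower values on heme. Among 21 folding genes 8 were above 0 and 13 below (median -0.08), which turned to 15 above 0 (median 0.08) under ribosomal protein centring. That stayed below that scaling's median of all genes, 0.19. Tgm3, on the same list, was called lower (8.64 to 7.19).

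Of 26 mucin O-glycan genes, 21 were below 0 in crypt cells with heme (median -0.30). The core 3 synthase gene B3gnt6 (8.55 to 5.94) was the 1 called, lower, against 1.19% of all genes. In surface cells 18 of the 26 were above 0 (median 0.17), against 48.5% of all genes. Of all genes there, 3.62% were called higher and 2.01% lower. Gcnt4 (5.61 to 6.94) and the fucosyltransferase gene Fut2 (9.20 to 10.23) were called higher there, and B4galnt2, which makes the Sda antigen, lower (11.54 to 10.13). Of the genes called in surface cells, only B4galnt2 was still called with 32 added.

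Markers of other cell types also differed between the crypt pools, where 1.19% of all genes were called lower on heme and 1.78% higher. Of 13 smooth muscle and fibroblast markers 3 were called lower on heme and all 13 were below 0 (median -0.72, summed linear level 6223 in control and 3481 in heme crypt cells). Of 8 endothelial markers 1 was called lower and all 8 were below 0 (median -0.71, sums of 929 and 564). Of 9 leukocyte markers 2 were called lower and 8 were below 0 (median -0.61). The crypt base and progenitor markers had a median of -0.44, with 12 of 13 below 0 and 2 called lower. With 32 added, 2 smooth muscle and fibroblast markers and none of the endothelial, leukocyte or crypt base markers were called. Colonocyte markers went the other way, with 12 of 16 above 0, 6 called higher, a median of 0.50 and sums of 15261 and 19128. For the 13 pan-epithelial genes the median was -0.04. The part of these shifts in the values of the secretory genes was not tested.

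**Figure D5:**
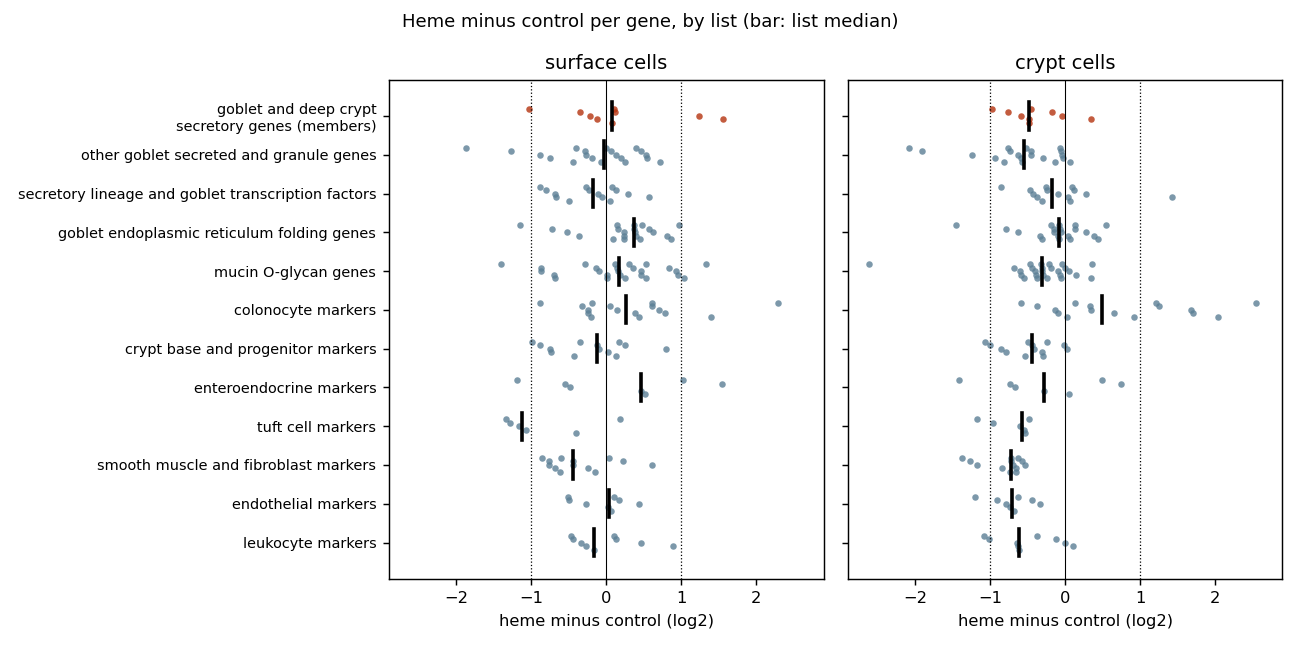
Heme minus control difference (log2, horizontal axis) of each gene that reached the floor, by list, in surface cells (left) and crypt cells (right), with list medians as black bars and dotted lines at 2-fold. In crypt cells the medians are -0.48 for the 9 measured secretory genes, -0.55 for other secreted and granule genes, -0.72 for smooth muscle and fibroblast markers and 0.50 for colonocyte markers.

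The difference between the heme effects, surface minus crypt, was above 0 for 7 of the 9 genes, with a median of 0.41 (all genes -0.02). It was called for Spink4 (1.74, rank 92 of 11147) and Reg4 (1.28, rank 214), 2 of 9 against 3.29% of all genes, and none was called in the other direction, against 2.17%. With 32 added, Reg4 was at 0.997 and no longer called. Values for the others were 0.59 for Atoh1, 0.53 for Agr2, 0.41 for Spdef, 0.37 for Muc2, 0.36 for Tff3, -0.05 for Kit and -0.25 for Zg16. Kit was thus the gene whose heme effect differed least between the compartments. A median above 0 was not particular to the secretory genes. It was 0.65 for endothelial (8 of 8 above 0), 0.42 for smooth muscle and fibroblast (11 of 13) and 0.36 for leukocyte markers (8 of 9). Medians were below 0 for colonocyte (-0.22, 6 of 16 above 0), tuft cell (-0.25, 2 of 6) and pan-epithelial genes (-0.05, 6 of 13).

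Genes with the most similar pattern were sought over the 4 arrays by Euclidean distance between mean-centred log2 values, among 10669 named genes, for the 7 members that ranged over at least 2 on the log2 scale. With 4 arrays many genes can match, and the distances are descriptions only. Nearest to Tff3 were Prom1 (distance 0.04), Fhdc1 (0.12) and Fbxo25 (0.16), and nearest to Zg16 were Unc5b (0.04), Cyp2d9 (0.11) and Mall (0.13). Agr2 was nearest to Maged1 (0.11), Greb1 (0.15) and Lpcat2 (0.16), and Spdef to Fzd7, Dmd and Sorcs2 (each 0.11). For Spink4, Gcg (0.13) was well ahead of Tmem97 (0.49) and Mecr (0.50). Kit was nearest to Prelp (0.22), Boc (0.26) and Creb3l4 (0.28). Reg4 had no close match, with Clca3b (0.80), Clca3a2 (0.84) and Nox1 (0.91) the nearest. Between members the smallest distances were 0.47 for Muc2 and Atoh1 and 0.49 for Agr2 and Spdef.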

How the data were processed

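The authors deposited 1 log2 value per probe set and Affymetrix array, which per the submitters' processing notes came from RMA. Its version, and which arrays were normalized as 1 batch, is not given in the sources used here. Per the labels' protocols, 100 ng of pooled RNA was labelled per array. Of 35556 probe sets, 21789 had 1 symbol, 1621 several and 12146 none in the platform annotation. Symbols were updated by gene identifier to GRCm38.p6 (21698 matched), and probe sets were averaged per gene.

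Differences of log2 values were computed for heme against control within a compartment, surface against crypt within a diet, and the difference of the 2 heme effects. The size rule (2-fold, floor 5.75) was run on simulated data with an assumed noise and planted changes larger than the rule, in genes well above the floor. That run cannot show how the rule performs for differences close to 2-fold or values close to the floor. The members and the 18 other gene lists were chosen with earlier results of these data known. All members are named. A rule picked up to 4 called genes with the largest differences from each other list, and only some of these were named. None of its picks from the colonocyte, crypt base, smooth muscle and fibroblast, endothelial, leukocyte, pan-epithelial and ribosomal protein lists was named. The markers Cpa3, Mcpt4, Tpsb2, Cma1 and Ano1 were named in any case. Prom1, Muc5ac, Tff1, Tff2, Lgr5, Cd24a, Neurog3, Bcas1, Foxa3, Gcnt4, Fut2, B4galnt2 and further values of genes outside this rule were chosen after their values were seen.

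Alternatives were no floor, 32 added to the linear values before log2, centring on ribosomal protein or pan-epithelial genes, cyclic loess, and the brightest probe set per gene. Python 3.11.15, numpy 2.4.6, pandas 2.3.3, matplotlib 3.10.9, R 4.3.3 and limma 3.58.1 were used.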

Additional observations from a re-analysis of the deposited data

Results flagged for a closer look

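Spink4 and Reg4 stood out because their heme differences had opposite signs in the 2 compartments and were at least 2-fold apart. For Spink4 the heme difference was 1.56 in surface and -0.18 in crypt cells, 1.74 apart on the log2 scale. For Reg4 it was 1.23 and -0.05, 1.28 apart. Each value rests on 1 pool per group, the crypt differences are small, and the difference between compartments was not tested. The difference of Reg4 in crypt cells turned to 0.11 under ribosomal protein centring, below that scaling's median of all genes, 0.19.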

How the results depend on the processing

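Each of 45 member differences (9 genes, 5 comparisons) was recomputed under 6 alternatives. Of the 270 values, 248 kept their direction and their side of the size rule, 10 were no longer called, 3 were newly called and 9 uncalled values changed sign; no called value changed sign. Dropping the floor and taking the brightest probe set could move none of the 45. Each measured member had 1 probe set and lay above the floor on all 4 arrays. These alternatives account for 45 unchanged values each among the 248 and are no check on the members. Counts of all genes called moved by over 1.5 times as follows, and the cause was not tested beyond the scaling itself. With 32 added to the linear values they went from 312 to 158 for heme in crypt cells and from 609 to 359 for the difference of heme effects. Under ribosomal protein centring they went from 2765 to 6479 for surface against crypt with control food and from 3400 to 6080 on heme, and under pan-epithelial centring to 5732 and 5700. The split into higher and lower moved from 1301 and 1464 to 6296 and 183 (ribosomal) or 466 and 5266 (pan-epithelial) on the control diet, from 1637 and 1763 to 5665 and 415 or 644 and 5056 on heme, and from 187 and 125 to 265 and 59 (ribosomal) for heme in crypt cells. No paired analysis was possible because each group holds 1 array. The number of arrays limits the precision, and Reg4 and Kit in surface cells lie nearest to the floor.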

Other observations

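Other secretory lineages of the same pools had values of their own. Of 6 tuft cell markers that reached the floor, 5 were below 0 with heme in surface cells (median -1.12) and all 6 in crypt cells (median -0.58). Dclk1, a kinase gene of tuft cells, went from 7.48 to 6.13 between the surface pools, and Rgs13 from 6.05 to 4.88 between the crypt pools. Of 7 enteroendocrine markers 2 were called higher and 1 lower in heme surface cells, against 3.62% and 2.01% of all genes. Insl5 was at 7.90 in control surface, 8.92 in heme surface, 9.75 in control crypt and 9.81 in heme crypt cells, while Chga, a granule protein gene of the same lineage, was at 8.64, 7.46, 8.03 and 7.30.

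Of 4 Paneth cell markers measured, Defa24 and Itln1 were below the floor on all arrays. Pla2g2a, a secreted phospholipase gene, was at 5.96 in control crypt and 7.58 in heme crypt cells, a difference of 1.62. Lyz1, the lysozyme gene and the other marker that reached the floor, was at 6.58 and 5.97, a difference of -0.61.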
